A study of Mus musculus with 4 samples.

Results

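The genes described here are 52 genes that build the spindle, hold and part the chromosomes and divide the cell, taken by symbol from a table of 23235 gene symbols measured in mouse haploid embryonic stem cells (haESCs). All 52 symbols were found once in each sample. They were chosen by function, as mitotic kinases, checkpoint proteins, centromere and cohesin subunits, the anaphase-promoting complex, kinesins and cytokinesis proteins. The rule uses no threshold on the measured values, but the list was drawn up with earlier results of these data known. RNA-seq was made from 4 samples of HG165, one androgenetic haESC line (its genome comes from the father alone) derived from young C57BL/6 mice. Of these, 2 samples had been treated with DMSO, the solvent, and 2 with RDF, the mixture of Repsox (an inhibitor of TGF-β signalling), DMH1 (an inhibitor of BMP signalling) and Forskolin (an activator of adenylyl cyclase). The usual medium held serum and leukemia inhibitory factor. The labels describe growth on feeder cells, while the methods restrict feeders to a few assays that do not include RNA-seq. Doses, length of treatment and any sorting of haploid cells before RNA was taken are not given for these samples in the sources used here, so that the share of cells that had already become diploid and the treatment itself cannot be told apart.

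In mitosis, microtubules of the spindle attach to chromosomes at kinetochores, protein assemblies built on the centromere. The spindle checkpoint holds back the anaphase-promoting complex until every kinetochore is attached, after which this ubiquitin ligase marks securin and cyclin B for destruction, separase opens the cohesin rings and sister chromatids part. Cytokinesis then divides the cytoplasm. A cell that copies its chromosomes and leaves mitosis without parting them, or without dividing, ends with a doubled genome, and haploid ESCs become diploid spontaneously in culture. Whether RDF went with different RNA levels of the machinery of division is the question asked of these genes.

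All values are FPKM, fragments scaled by transcript length and by library size, as the authors deposited them, so that levels can be set side by side between genes. Fold changes are RDF minus DMSO on the log2(FPKM + 1) scale, which understates changes of low genes. They were tested with limma over 11733 genes, those averaging 1 FPKM or more, and a gene was called at a Benjamini-Hochberg adjusted p under 0.05 over all of these. About 9320000 to 12480000 fragments a sample were estimated from the steps of low values, and a member's value in a sample rested on about 24.6 (Aurkc) to 9726 (Top2a) fragments, with a median of 1244. The labels do not say that samples of a group were separate cultures, so p-values measure only the spread between these samples.

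The transcripts of the labelled cell type were present: 8 pluripotent stem cell markers summed to 7748 to 7808 FPKM with DMSO and to 4547 to 5017 FPKM with RDF, of which 4 were called down and 2 up. Most of this gap lay in 1 gene, Dppa5a, with a mean of 5516 FPKM under DMSO and 3035 FPKM under RDF. Pou5f1 (-0.35), Tdgf1 (-0.70) and Utf1 (-0.80) were also called down, Zfp42 (0.85) and Sox2 (0.26) were called up, and Nanog (-0.06) and Esrrb (0.20) were not called. Markers of other cells were low but not the same in the groups. The sum of 9 fibroblast markers was 24.6 to 27.3 FPKM with DMSO and 16.4 to 18.7 FPKM with RDF (3 down and 1 up of 6 tested), that of 6 primitive endoderm markers 5.65 to 7.28 and 9.94 to 10.01 FPKM (1 up of 2 tested), and that of 5 trophoblast markers 29.3 to 32.0 and 55.9 to 58.9 FPKM (2 up of 2 tested). Most of the trophoblast sum was 1 gene, Tfap2c (27.2 and 25.1 FPKM with DMSO, 48.3 and 50.7 FPKM with RDF). Hand1 rose by 0.70, and Cdx2, Elf5 and Gcm1 averaged under 1 FPKM. No marker was at 0 in both samples of a group. The part of these cells in the results that follow was not tested, and in bulk RNA a different number of cells of a type and a different amount of RNA per cell cannot be told apart.

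With RDF, 15 of the 52 genes were up-regulated (28.8%), none was called down and 37 did not pass the test. Over all tested genes, 21.6% were called, 13.3% up and 8.28% down. The gap between these shares cannot be read as a result, since the list was drawn up with earlier results of these data known. It holds Mki67, Cdc14a, Rad21 and Cenpf, which the authors had already reported as up-regulated with RDF from this RNA-seq. The median log2 fold change of the 52 was 0.10, beside 0.03 over all tested genes. Of the 52, 33 were above 0, beside 6382 of all 11733 tested genes. With the pseudocount of 1, single values ran from -0.29 (Cdc20) to 0.65 (Aurkc and Cdc14a). The called genes came from 9 of the 10 role groups, and the spindle checkpoint was the group without one. They were mostly the less abundant members: the median of their mean levels was 11.3 FPKM, and that of the members not called was 38.6 FPKM. Over all tested genes this was not so, with 10.7 FPKM for genes called up and 9.48 FPKM for genes not called. Each of the 15 had both RDF values above both DMSO values, which a call with 2 samples a group nearly requires. Members that were not called, among them Aurka, Nek1, Kif4 and Stag2, had this too. Others had both RDF values below both DMSO values, among them Bub3, Mad2l1, Cdc20, Cdc23, Nuf2, Kif20a and Racgap1. Neither share over all tested genes was counted. All 52 passed the filter on low values, Cdc14a only through its RDF values.

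The number of calls depended on single samples. With 1 sample left out, the spread of the lone sample is taken from the other group, and the count of up-regulated members was 12 without DMSO replicate 1, 9 without DMSO replicate 2, 3 without RDF replicate 1 and 0 without RDF replicate 2. Over all genes these fits called 9.55%, 9.03%, 3.05% and 2.16% up. Since both RDF values of each of the 15 genes lay above both DMSO values, no such fit could turn their sign. Their log2 fold changes in the 4 fits ran from 0.20 (Incenp) to 0.87 (Aurkc). Between samples of a group the median difference of a member was 0.06 on the log2 scale, with DMSO and with RDF alike, and the widest were 0.31 for Cenpc1 between DMSO samples and 0.44 for Aurkc between RDF samples.

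**Figure D1:**
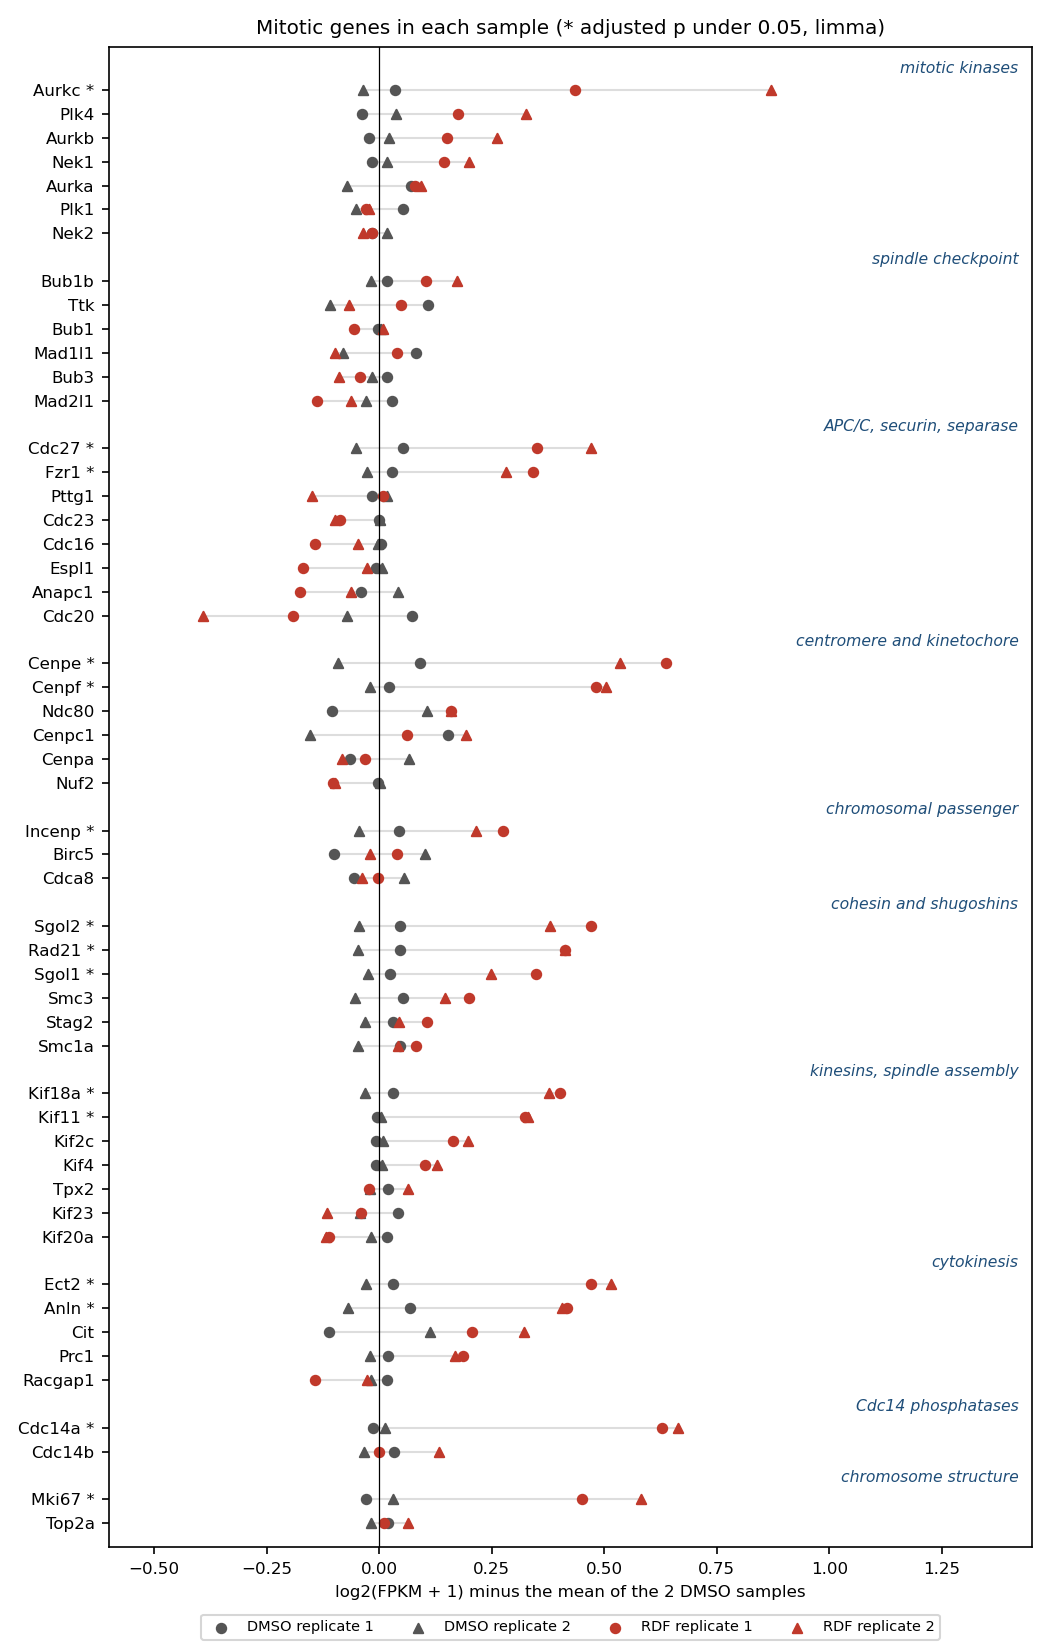
Values of the 52 genes in each of the 4 samples, on the log2(FPKM + 1) scale (horizontal axis) with the mean of the 2 DMSO samples set to 0, grouped by role. Grey marks are DMSO, red marks are RDF, circles and triangles are replicates 1 and 2, and an asterisk marks an adjusted p under 0.05 by limma. The red marks of the 15 genes with an asterisk lie to the right of both grey marks. Those of Cdc20, Bub3, Nuf2, Kif20a and some others without an asterisk lie to the left.

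Mitotic genes are classically switched on late in the cell cycle through a pair of promoter elements: the CHR (cell cycle genes homology region), read by the DREAM and MuvB complexes, and CCAAT boxes, read by NF-Y. Promoter windows from 250 bases before to 50 after the annotated start (RefSeq, GRCm38.p6, a later build than that of the expression files) were found for 44 of the genes, 52 windows in all since some genes have several starts. Sgol1 and Sgol2 are there under the names Sgo1 and Sgo2a. The letters TTTGAA (CHR) and CCAAT, were searched on both strands, and matches of the pair can share at most 1 base. The CHR letters stood in 26 of the 52 windows (50%), beside 11.4% of 10779 windows of tested genes and 17.9% of all 32851 windows. CCAAT stood in 34 (65.4%), beside 38.4% and 37.4%, and both together in 21 (40.4%), beside 4.81% and 6.95%. Both elements stood in 5 of 17 windows of called members (29.4%) and in 16 of 35 windows of members that were not called (45.7%). Counted whether or not the other element was there, the CHR letters were in 47.1% and 51.4% of these windows, and CCAAT was in 76.5% and 60%. The called members thus had the lower share of the CHR letters and the higher share of CCAAT. These differences were not tested. Such a match is a description and not a site that was seen bound. Aurkb, Nek1, Cdc23, Incenp, Rad21, Stag2, Kif20a and Tpx2 had no window in the table used.

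The 5 genes that carried both elements within the 100 bases before their most upstream start are printed to show this shared arrangement in 1 up-regulated gene, the spindle motor Kif11, and in 4 that were not called, the checkpoint gene Bub3, the activator Cdc20, separase (Espl1) and the topoisomerase Top2a. Each run is 5′ to 3′ on the strand of the gene, and capitals mark the CHR letters (TTTGAA, or TTCAAA when read on the other strand) and the CCAAT box (or ATTGG). The positions are on GRCm38.p6.
Kif11 (chr19:37376282-37376381, plus strand): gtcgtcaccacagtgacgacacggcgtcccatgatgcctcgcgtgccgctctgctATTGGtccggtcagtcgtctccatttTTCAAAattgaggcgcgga
Bub3 (chr7:131560270-131560369, plus strand): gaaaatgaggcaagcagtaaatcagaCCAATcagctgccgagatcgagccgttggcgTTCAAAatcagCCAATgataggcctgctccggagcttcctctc
Cdc20 (chr4:118437344-118437443, minus strand): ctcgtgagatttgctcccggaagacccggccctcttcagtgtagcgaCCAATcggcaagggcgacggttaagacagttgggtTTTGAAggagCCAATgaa
Espl1 (chr15:102296193-102296292, plus strand): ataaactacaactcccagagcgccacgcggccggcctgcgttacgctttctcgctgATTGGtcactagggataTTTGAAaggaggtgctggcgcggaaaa
Top2a (chr11:99024190-99024289, minus strand): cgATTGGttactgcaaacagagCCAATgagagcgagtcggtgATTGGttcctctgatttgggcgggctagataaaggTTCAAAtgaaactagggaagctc
In all 5 the CHR letters lay 18 to 43 bases before the start, counted at their first base, and a CCAAT box stood further upstream. Kif11 and Espl1 carried 1 CCAAT box in this stretch, Bub3 and Cdc20 carried 2 and Top2a carried 3.

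**Figure D2:**
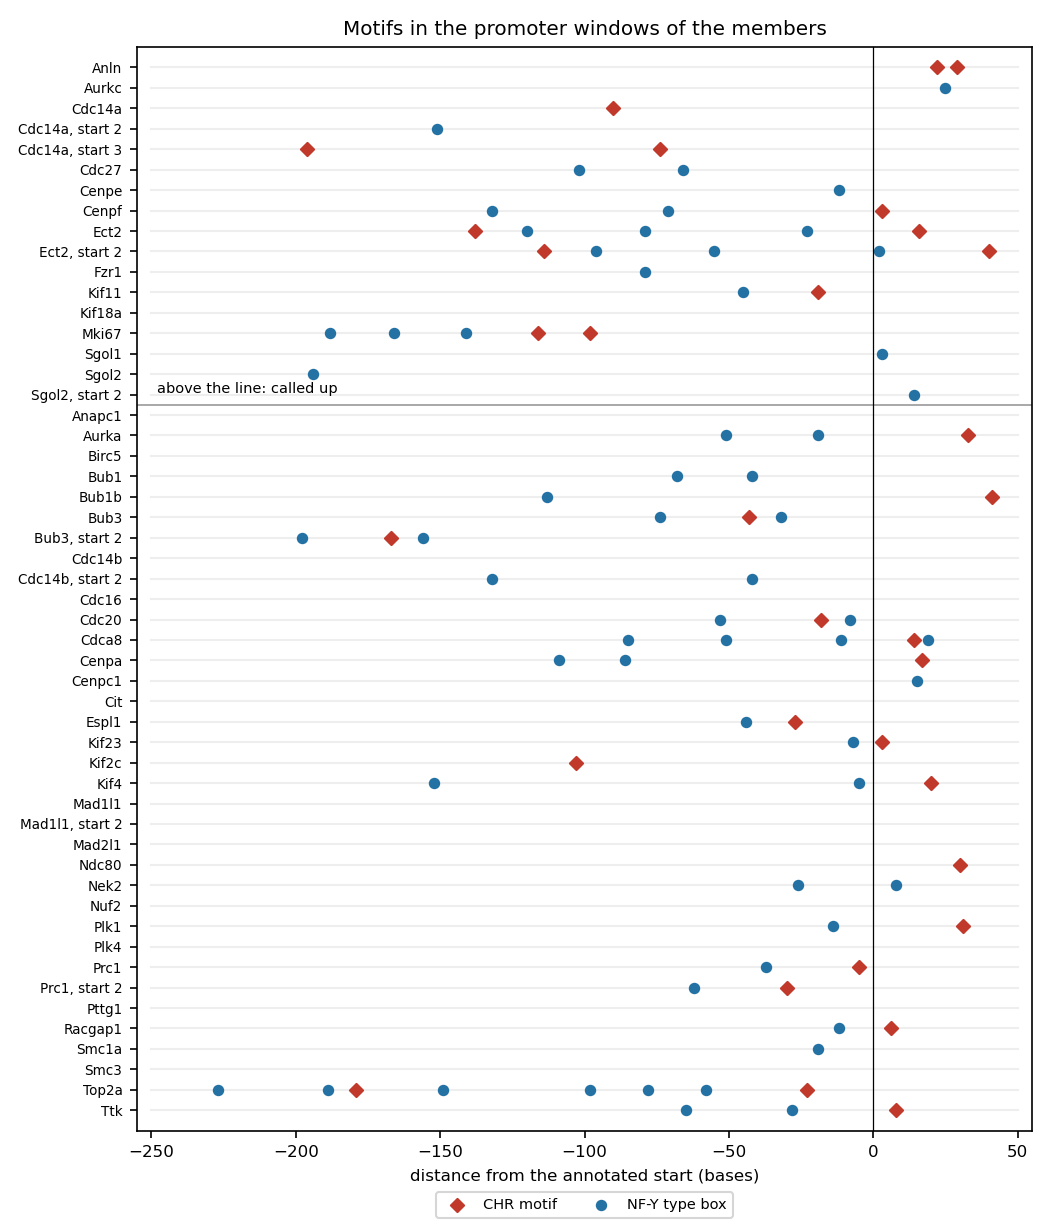
Positions of the CHR letters (red diamonds) and of the CCAAT box, the NF-Y type box (blue circles), in bases from the annotated start (horizontal axis), in 52 promoter windows of 44 genes. Windows of called members stand above the grey line; both kinds of mark are found above it (5 of 17 windows hold both) and below it (16 of 35).

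Among the mitotic kinases, 1 of 7 was up-regulated, the Aurora kinase whose main known place is the germ line. Aurkc (chr7:6948154-6955656, plus strand, mm9) stood at 2.78 and 2.60 FPKM with DMSO and at 3.99 and 5.75 FPKM with RDF. Its log2 fold change was 0.65 with a standard error of 0.15 (adjusted p = 0.032, limma), and 0.44 without RDF replicate 2 (adjusted p = 0.114), and it passed the threshold in 1 of the 4 fits with a sample left out. The RDF samples lay further apart than those of any other member. Only about 24.6 to 61.8 fragments stood behind each value. Aurka, the spindle pole kinase, was the most abundant of the group, at 82.0 and 74.2 FPKM with DMSO and 82.5 and 83.2 FPKM with RDF. The groups of Aurka did not overlap but the difference was 0.09 ± 0.06 (SE, adjusted p = 0.368). Aurkb, the kinase of the chromosomal passenger complex, which corrects faulty kinetochore attachments, lay at 34.4 and 35.5 FPKM with DMSO and at 38.9 and 42.1 FPKM with RDF, 0.21 higher but short of the threshold (adjusted p = 0.0657). Its adjusted p by limma was 0.0476 with the replicate number as a block and 0.0331 with a trend on transcript length and GC content removed. In the other alternatives that used all 4 samples it stayed above the threshold, from 0.0621 (filter of 5 FPKM) to 0.116 (no variance trend). Differences between the 3 Aurora genes in their response were not tested. Plk4, which licenses centriole duplication, gave 0.25 (adjusted p = 0.0818) and Nek1 0.17 (adjusted p = 0.219), both without overlap of the groups. Plk1, which drives mitotic entry and spindle assembly, and Nek2, which parts the centrosomes, were each at -0.03, and their groups overlapped. The 95% interval for Plk1 ran from -0.17 to 0.12.

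None of the 6 spindle checkpoint genes passed the test, and their median log2 fold change was -0.03. Bub3, which docks the checkpoint kinases on the kinetochore, was the most abundant, with 89.5 and 87.4 FPKM under DMSO and 85.9 and 83.1 FPKM under RDF (-0.07, adjusted p = 0.4). Bub1, the kinase at the base of the pathway, held 59.0 and 59.2 FPKM with DMSO against 56.8 and 59.5 FPKM with RDF, a difference of -0.02 with a 95% interval from -0.16 to 0.11. Mad2l1, the inhibitor that captures Cdc20, was at -0.10, and Mad1l1, its partner, and Ttk, the Mps1 kinase, were at -0.03 and -0.01. Bub1b (BubR1), a part of the inhibitor complex itself, was the 1 gene of the group above 0, at 46.8 and 45.7 FPKM with DMSO and 49.8 and 52.3 FPKM with RDF (0.14, adjusted p = 0.128). For the 6 genes the intervals reached at most 0.28 upwards and -0.25 downwards on the log2 scale.

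Genes of the anaphase-promoting complex, its activators, securin and separase moved unequally. Of these 8, the subunit Cdc27 and the activator Fzr1 were up-regulated. The other 6 lay below 0 without passing the test, and they include the subunits Cdc16, Cdc23 and Anapc1 and the activator Cdc20. Cdc27 (chr11:104364059-104411934, minus strand), the scaffold subunit to which activators bind, rose from 7.92 and 7.29 FPKM with DMSO to 9.96 and 10.9 FPKM with RDF (0.41 ± 0.08 SE, adjusted p = 0.0212). Fzr1 (Cdh1; chr10:80828967-80841261, minus strand), the activator that keeps the complex working from late mitosis through G1, rose from 27.3 and 26.2 FPKM to 34.1 and 32.7 FPKM (0.31 ± 0.06 SE, adjusted p = 0.0174). Cdc20, the activator of metaphase and the target of the checkpoint, had the highest level of all 52 genes under DMSO, with 171 and 155 FPKM, and stood at 142 and 124 FPKM with RDF. Its difference was the lowest of the 52, -0.29 ± 0.09 (SE), and missed the threshold (adjusted p = 0.0600). With the replicate number as a block its adjusted p by limma was 0.0154. In the other alternatives that used all 4 samples it stayed above the threshold, from 0.0516 (median-ratio scaling) to 0.125 (no filter). The subunits Cdc16, Cdc23 and Anapc1 were at -0.10, -0.09 and -0.12, separase (Espl1) at -0.10 and securin (Pttg1) at -0.07, with 96.2 and 98.4 FPKM under DMSO and 97.9 and 87.6 FPKM under RDF. Fzr1 and Cdc20 thus differed in sign; that difference itself was not tested.

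At the centromere and kinetochore, the up-regulated genes were 2 of 6, and both code for very large proteins of the outer corona. Cenpe (chr3:134875527-134936504, plus strand), the kinesin that brings late chromosomes to the metaphase plate, rose from 4.57 and 3.91 FPKM to 7.14 and 6.58 FPKM (0.59 ± 0.10 SE, adjusted p = 0.0123). Cenpf (chr1:191464478-191511965, minus strand), a corona protein that rises in G2, went from 5.64 and 5.45 FPKM to 8.13 and 8.27 FPKM (0.49 ± 0.08 SE, adjusted p = 0.00961). In both genes the gap between the groups was wider than that within them, which a call nearly requires. Cenpa, the histone variant that marks the centromere, held 99.7 and 109 FPKM with DMSO and 102 and 98.6 FPKM with RDF, and these values overlapped (-0.06, adjusted p = 0.552). Ndc80 and Nuf2, partners in the complex that grips microtubules, lay at 0.16 and -0.10, neither past the threshold, and Cenpc1, which links Cenpa chromatin to the kinetochore, was at 0.13 with the widest spread between DMSO samples.

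Of the 3 passenger partners of Aurora B, the scaffold Incenp (chr19:9946787-9974023, minus strand) rose, from 26.1 and 24.5 FPKM to 30.8 and 29.5 FPKM (0.24 ± 0.06 SE, adjusted p = 0.0411). This was the smallest change among the 15 called genes and it passed the threshold in none of the fits with 1 sample left out, where its adjusted p was between 0.0574 and 0.172. Birc5 (survivin), the subunit that brings the complex to the centromere, had the highest level, with 115 and 132 FPKM under DMSO and 126 and 121 FPKM under RDF (0.01, adjusted p = 0.946). Cdca8 (borealin) was at -0.02. The values of both overlapped between the groups.

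Cohesin and the shugoshins, which protect it at the centromere, held the most called members of any role group, 3 of 6 (50%). Over all tested genes 13.3% were called up. All 6 lay above 0, as did 6382 of all 11733 tested genes. With the trend on transcript length and GC content removed, Sgol1 was not called, and Smc1a (-0.05) and Stag2 lay below 0. Differences between role groups were not tested. Rad21 (chr15:51794151-51823306, minus strand), the subunit that separase cuts, rose from 65.1 and 61.0 FPKM to 84.2 and 84.2 FPKM, a log2 fold change of 0.41 ± 0.06 (SE, adjusted p = 0.00681). Sgol2 (chr1:58052815-58082743, plus strand) rose from 12.1 and 11.3 FPKM to 16.6 and 15.5 FPKM (0.42 ± 0.07 SE, adjusted p = 0.0129). Sgol1 (chr17:53814111-53828658, minus strand) rose from 10.2 and 9.88 FPKM to 13.1 and 12.1 FPKM (0.30 ± 0.07 SE, adjusted p = 0.0362) and, like Incenp, passed the threshold in no fit with 1 sample left out (adjusted p from 0.0756 to 0.159). Smc3, one of the coiled-coil arms of the ring and the most abundant of the group, stood at 85.9 and 79.7 FPKM with DMSO and at 95.1 and 91.7 FPKM with RDF, 0.17 higher without passing the test (adjusted p = 0.0911). The other arm, Smc1a, and the subunit Stag2 were at 0.06 and 0.07. Exons of Sgol2 overlap 2455 bases of Kctd18 on the opposite strand, and the strand setting used in mapping is not given in the sources used here. Kctd18 itself was not called (6.58 and 5.76 FPKM with DMSO, 5.53 and 5.58 FPKM with RDF).

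Spindle motors and assembly factors contained 2 up-regulated genes of 7. Kif11 (Eg5; chr19:37450893-37496349 on mm9, plus strand), which slides antiparallel microtubules apart to make the spindle bipolar, was at 17.1 and 17.2 FPKM with DMSO and at 21.7 and 21.8 FPKM with RDF. Its samples were among the tightest of all members (0.33 ± 0.06 SE, adjusted p = 0.0145). Kif18a (chr2:109120895-109181904, plus strand), which dampens chromosome movement at the plate, rose from 7.04 and 6.71 FPKM to 9.40 and 9.23 FPKM (0.39 ± 0.08 SE, adjusted p = 0.0178). The depolymerase Kif2c (MCAK) lay at 0.18 (adjusted p = 0.0629) and the chromokinesin Kif4 at 0.12 (adjusted p = 0.208), both without overlap. Tpx2, which activates Aurka on the spindle, had the highest level of the group, 48.0 and 46.6 FPKM with DMSO and 46.5 and 49.5 FPKM with RDF (0.02, adjusted p = 0.824). Kif23 and Kif20a, the motors of the central spindle, were at -0.08 and -0.11. Cdc23 and Kif20a share 1259 bases of exon on opposite strands, so that without strand their reads cannot be told apart. Exons of Kif4 and Cdca8 also overlap genes of the opposite strand, over 832 and 232 bases.

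In cytokinesis, 2 of 5 genes rose. Ect2 (chr3:26996144-27052800, minus strand), the exchange factor that switches on RhoA at the cleavage furrow, went from 30.2 and 28.9 FPKM to 41.4 and 42.7 FPKM, and its adjusted p was the smallest of the 52 (0.49 ± 0.06 SE, adjusted p = 0.00419). Anln (anillin; chr9:22135658-22193650, minus strand), the scaffold of the contractile ring, went from 24.7 and 22.4 FPKM to 31.8 and 31.5 FPKM (0.41 ± 0.07 SE, adjusted p = 0.0111). Prc1, which bundles the midzone microtubules, was the most abundant, with 50.03 and 48.6 FPKM under DMSO and 56.2 and 55.5 FPKM under RDF (0.18, adjusted p = 0.0612). Racgap1, which recruits Ect2 to the midzone together with Kif23, lay at -0.08 (95% interval -0.24 to 0.07, adjusted p = 0.372). The difference between Ect2 and these partners in response was not tested. Citron kinase (Cit), of the midbody, was at 0.26 with low levels of 2.58 to 3.83 FPKM (adjusted p = 0.152).

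The Cdc14 phosphatases, relatives of the yeast enzyme that drives mitotic exit, gave 1 call of 2. Cdc14a (chr3:115975471-116126950, minus strand) was the lowest member, at 0.778 and 0.812 FPKM with DMSO and 1.77 and 1.84 FPKM with RDF, values that rested on about 32.5 to 99.3 fragments. Cdc14a passed the filter of 1 FPKM only through its RDF values, so that its p-value and its call depend on the rise itself. Its log2 fold change was 0.65 ± 0.11 (SE, limma adjusted p = 0.0121) with the pseudocount of 1, close to that of Aurkc. With a pseudocount of 0.1 it was 1.09, beside 0.81 for Aurkc. Cdc14b held 6.92 and 6.57 FPKM with DMSO and 6.74 and 7.48 FPKM with RDF (0.07, adjusted p = 0.612). Of the chromosome structure genes, Mki67 (chr7:142881471-142908062, minus strand), the Ki-67 protein that coats mitotic chromosomes and is the classical proliferation marker, rose from 7.65 and 8.02 FPKM to 11.1 and 12.2 FPKM (0.52 ± 0.08 SE, adjusted p = 0.00968). Top2a, the topoisomerase that untangles sister chromatids, was one of the highest of the 52 with 150.0 and 146 FPKM under DMSO and 149 and 155 FPKM under RDF (0.04, 95% interval -0.09 to 0.17).

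Genes of the same machinery outside the 52 showed a smaller share of rises than the 52 (28.8%), beside 13.3% of all tested genes. The gap from the 52 cannot be read as a result, since the lists were drawn up with earlier results of these data known. Of 97 such genes listed, 91 were in the files under the names searched and were tested; 17 were up-regulated (18.7%), 2 were called down and the median log2 fold change was 0.08. Among 29 other kinetochore genes 4 rose, 13.8% beside 13.3% of all tested genes, and 1 fell. Ccdc99 (spindly, which removes checkpoint proteins from attached kinetochores, 0.64, adjusted p = 0.0036), Hjurp (the chaperone that loads Cenpa, 0.49) and Cenpb (0.41) were among those that rose, and Cenpm fell by 0.24. In the rest of the anaphase-promoting complex, 1 of 11 rose (9.09%), the ubiquitin-conjugating enzyme Ube2s (790.2 and 803 FPKM with DMSO, 1023 and 953 FPKM with RDF, 0.31). The subunit Anapc5 fell by 0.25. Cohesin regulators and condensin gave 4 rises of 18 (22.2%) and no fall. The rises were led by the cohesin loader Nipbl (0.43), the condensin subunit Smc2 (0.40) and the cohesin release factor Wapal (0.31). Other spindle and centrosome genes gave 6 rises of 26 (23.1%). These were led by Plk2 (9.49 and 9.70 FPKM with DMSO, 18.7 and 20.05 FPKM with RDF, 0.94, limma adjusted p = 0.00129), Plk3 (0.79) and Aspm (0.34). Plk2 and Plk3 are known as stress-response kinases rather than as parts of the spindle. In other cytokinesis genes, 2 of 7 rose (28.6%), among them Cdca2 (0.41), which binds the phosphatase of mitotic exit.

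Set beside these, 36 DNA replication genes gave 3 rises (8.33%, below the 13.3% of all tested genes), no fall and a median of 0.01. The rises were Orc1 (0.37), Mcm10 (0.32) and Cdt1 (0.22). Of 15 tested regulators of mitotic gene transcription, 2 rose (13.3%) and 3 fell (20%, beside 8.28% of all tested genes). Rbl2 lay below the filter on low values. Lin52, a subunit of the MuvB core, went from 7.11 and 5.91 FPKM to 13.8 and 13.3 FPKM (0.95, adjusted p = 0.00301) and Nfyb, a subunit of NF-Y, rose by 0.25. Lin37, another MuvB subunit, fell by 0.35, the DREAM repressor E2f4 by 0.31 and the activator Mybl2 (B-Myb) by 0.23. Foxm1, the main activator of G2/M genes, was at 0.11 (adjusted p = 0.363). In each list both the count and the median describe these libraries, and differences between the lists were not tested.

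**Figure D3:**
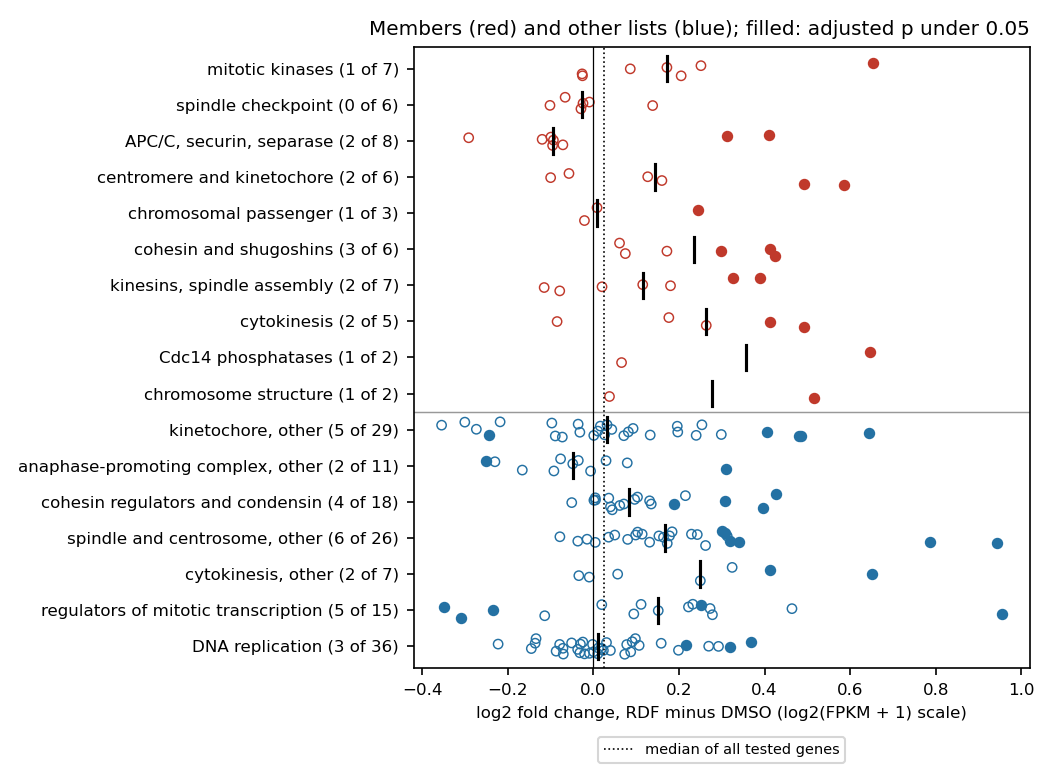
Log2 fold changes, RDF minus DMSO (horizontal axis), of the 52 genes by role (red) and of genes of other lists (blue), with the number called of the number tested in brackets. Filled circles passed an adjusted p of 0.05 by limma, black bars are the medians of the lists and the dotted line is the median of all tested genes (0.03); all filled red circles lie to the right of 0.

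In the median, up-regulated members had longer transcripts of lower GC content than the other members. The median length of the longest annotated transcript was 4485 nucleotides for the 15 called genes and 3227 for the 37 others, and the median GC content 43.3% and 47.3%. The same went for all tested genes in length, with medians of 3738 nucleotides among genes called up, 2838 among those not called and 2196.5 among those called down. Across the 52 genes, which share libraries and are not independent replicates, Pearson's r of the log2 fold change was 0.32 with length and -0.27 with GC content (Spearman's rho 0.36 and -0.30), beside 0.21 and -0.09 over 11317 tested genes with a transcript sequence (Spearman's rho 0.26 and -0.11). Of the called genes, Cenpf, Mki67 and Cenpe had transcripts of 11137, 10075 and 7813 nucleotides and Aurkc, at 948, was the shortest of all 52. The called Fzr1 had the highest GC content of all 52 (59.9%), and the called Incenp had 54.5%.

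**Figure D4:**
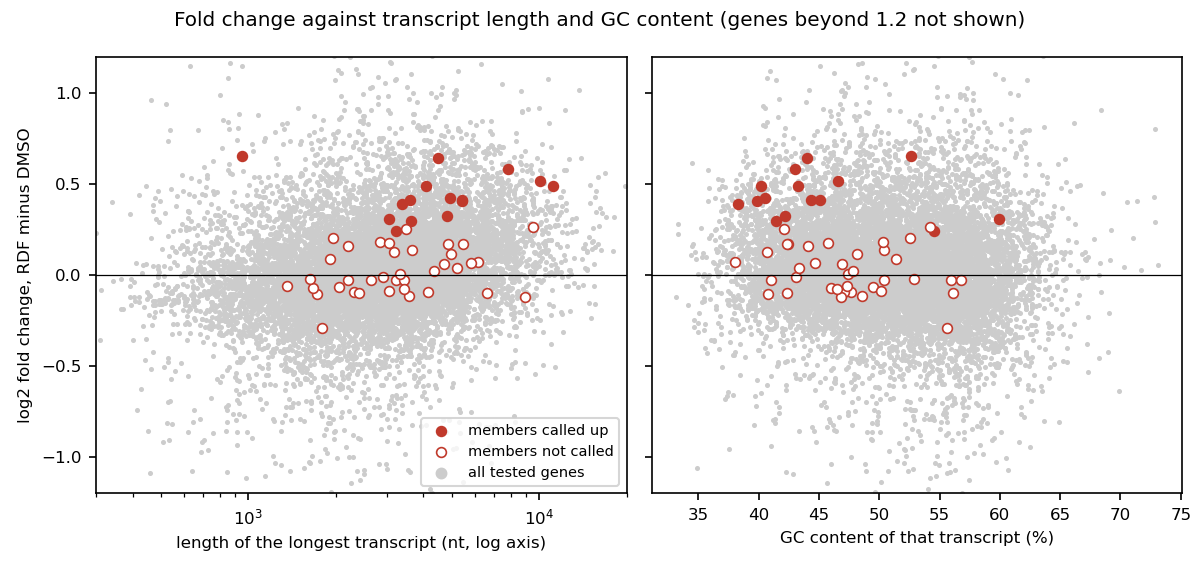
Log2 fold change, RDF minus DMSO, against the length in nucleotides (left, log axis) and the GC content in percent (right) of the longest annotated transcript, for all tested genes (grey) and for the 52 genes (red, filled where called up). The called members sit mainly among long transcripts with a GC content near 43.3%, and Aurkc is the filled point at the far left.

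When a smooth trend on length and GC content was taken out of each sample, 15 of the 52 were again called up, beside 12.7% of all genes, and 4 were called down, beside 12.4%. Of the up-regulated genes, 14 were shared. Sgol1 was lost (adjusted p = 0.0689) and Aurkb gained (adjusted p = 0.0331). The 4 called down were Anapc1 (-0.31), Espl1 (-0.21), Cdc23 (-0.19) and Kif20a (-0.18), of which 3 belong to the anaphase group. The median of the 52 was then 0.02, beside -0.01 over all genes, and 28 of the 52 were above 0. Which of the 2 scales is nearer to the RNA content of the cells was not tested.

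**Figure D5:**
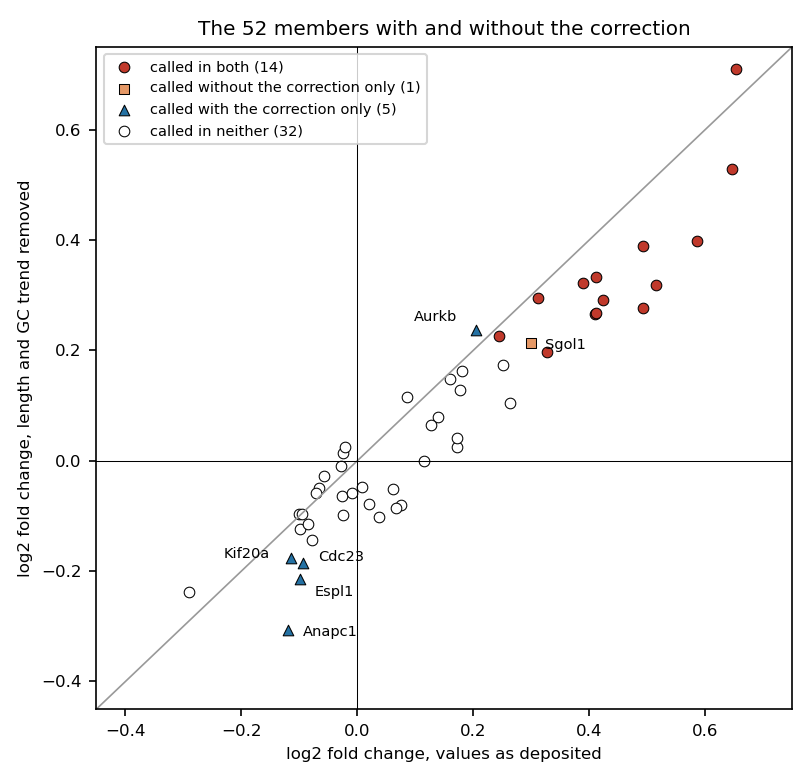
Log2 fold changes of the 52 genes as deposited (horizontal axis) and with the trend on transcript length and GC content removed (vertical axis); the diagonal marks equal values. Red circles (14) were called both ways, the square (Sgol1) only without and the triangles (5, Aurkb above and 4 below 0) only with the trend removed; the largest rises lie mostly below the diagonal, Aurkc above it.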

How the data were processed

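The authors prepared libraries of 2 DMSO and 2 RDF samples with a kit that keeps the strand of the mRNA. Per the submitters' processing notes the reads were handled with TopHat2 2.0.14, Bowtie2 2.1.0 and Cufflinks 2.2.1 on mm9. The deposited values are FPKM per gene symbol, so mapping, length scaling and library scaling were already done. No count test was used. Each sample lists 23235 symbols, of which 5223 are at 0 in all 4 and 25 are written as dates.

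Samples were grouped by their labels. Values were set to log2(FPKM + 1) and RDF was compared with DMSO in limma 3.58.1 (R 4.3.3; linear fit, moderated variance with a trend on the mean, no block) over 11733 genes averaging 1 FPKM or more, with Benjamini-Hochberg adjustment and a threshold of 0.05. The script was tested on simulated data. An estimate of the depth came from the steps of low values of genes with 1 annotated transcript, of which 40.9% to 43.8% lay within 0.1 of a whole fragment, beside 20% for an even spread, so fragment numbers are approximate. Intervals are at 95%. Positions, lengths and GC content came from GENCODE on the mm9 assembly and promoter windows from RefSeq. Of the 50-base stretches of any member at most 0.699% occur in transcripts of another coding gene.

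The 52 genes, the role groups and the other lists were chosen with earlier results of these data known. Values in every sample are given for called members with a log2 fold change of at least 0.3 and for the highest-level member of each role group, with others added where they are described. From the other lists up to 3 called rises and 3 called falls are named, except some genes that are not reported here; Cenpb, which lies outside this rule, Foxm1, Rbl2 and Kctd18 were added after their values were seen. The alternatives were another pseudocount (0.1), a filter of 5 FPKM, no filter, median-ratio scaling, quantile normalization, no variance trend, the replicate number as a block, removal of the length and GC trend, and leaving out each sample.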

Additional observations from a re-analysis of the deposited data

How the results depend on the processing

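Over all genes, 942 were called up and 606 down with no filter, and 253 to 1121 up and 195 to 731 down with one sample left out. Of the 52 genes, 0 to 12 were called up and 0 to 1 down with one sample left out. The replicate block gave 16 up (Aurkb added) and 1 down (Cdc20), and removal of the length and GC trend gave 4 down and a median of 0.0242. The other mitotic genes gave 8 up and 0 down with no filter, 11 and 1 with quantile normalization, 0 down with no variance trend, 5 down with the block, and 3 to 11 up and 0 to 3 down with one sample left out. Fewer samples and more low genes tested are built into these fits; other causes were not tested. With 2 pairs, deviations of same-numbered samples had r = 0.134 and rho = 0.114 across genes, and the labels tie nothing to the number, so the samples share only a number.

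No called gene turned its sign under these alternatives, but most of them could not turn it. The filters, the variance trend and the block leave a fold change as it is. Another pseudocount or a sample left out keeps the sign where both RDF values lie above both DMSO values. Only median-ratio scaling, quantile normalization and removal of the length and GC trend could have turned it. Calls were lost with no filter for Aurkc, Cdc27, Incenp and Sgol1, with median-ratio scaling or quantile normalization for Incenp and Sgol1, and without the variance trend for Incenp. Members that were not called and lay near 0 turned sign, for causes that were not tested. With the length and GC trend removed, Plk1 was at 0.0146, Cdca8 at 0.0241, Birc5 at -0.0473, Smc1a at -0.0519, Stag2 at -0.0805, Kif4 at -0.00050, Tpx2 at -0.0775, Cdc14b at -0.0861 and Top2a at -0.103. With median-ratio scaling Birc5 was at -0.0248 and Tpx2 at -0.0127, and with quantile normalization Cdc14b was at -0.00221. With one sample left out, Plk1 ranged from -0.0771 to 0.0266, Bub1 from -0.0566 to 0.00859, Mad1l1 from -0.110 to 0.0522, Ttk from -0.118 to 0.1003, Pttg1 from -0.150 to 0.00788, Cenpa from -0.122 to 0.00831, Cenpc1 from -0.0260 to 0.280, Birc5 from -0.0923 to 0.110, Cdca8 from -0.0766 to 0.0354 and Tpx2 from -0.0234 to 0.0643. Counts of fragments limit Aurkc and Cdc14a most, and 2 samples a group limit every call.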
